A study of Homo sapiens with 16 samples.

Results

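The libraries described here are 6 RNA-seq libraries in which CD34 was expressed, and they were compared by their level of RUNX1T1. They were selected on measured values and not by their labels. Of the 12 libraries of cells treated in culture, 6 had more than 50 CPM (counts on a gene scaled to the library's total count on genes, as deposited) of CD34, the surface glycoprotein of haematopoietic stem and progenitor cells. Of these 6, 3 had more than 200 CPM of RUNX1T1 and are called RUNX1T1-high, and 3 had less and are called RUNX1T1-low. The whole series holds 16 samples.

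The study treated Kasumi-1 and SKNO-1, human cell lines of acute myeloid leukaemia (AML) with the t(8;21) translocation, with lipid nanoparticles (LNPs) at 2 µg/ml for 24 h, and harvested the cells on day 3. The LNPs carried siRE-mod, a chemically modified siRNA directed against the RUNX1/ETO fusion transcript, or siMM-mod, its mismatch control. The 6 libraries thus share the t(8;21) background and the exposure to LNPs. Each cell line is a single leukaemia kept in culture, and the labels do not say whether replicates came from separate treatments, so p-values measure only the spread between these samples, which may be technical.

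In t(8;21) AML the DNA-binding domain of *RUNX1*, a transcription factor of blood cell development, is fused to nearly all of ETO, the corepressor that RUNX1T1 encodes. The fusion protein binds RUNX motifs, recruits complexes with *NCOR1* and histone deacetylases, and is known for holding myeloid cells at a progenitor stage with little formation of granulocytes. Reads on RUNX1T1 in these cells come from the part of the gene that the fusion retains, together with any transcript of the normal gene.

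The RUNX1T1-high libraries were labelled Kasumi-1 siMM-mod 1, SKNO-1 siMM-mod 1 and SKNO-1 siMM-mod 2. Their RUNX1T1 levels were 281, 309 and 254 CPM, and their CD34 levels were 398, 395 and 356 CPM. The RUNX1T1-low libraries were labelled Kasumi-1 siMM-mod 2, SKNO-1 siMM-mod 3 and SKNO-1 siRE-mod 1, with 79.2, 134 and 128 CPM of RUNX1T1 and 130, 125 and 121 CPM of CD34. Just inside and just outside the 200 CPM boundary stood 254 and 134 CPM. These values chose the libraries and are therefore a description and no result.

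The labels cross the sets. Each set holds 1 library labelled Kasumi-1 and 2 labelled SKNO-1, and 5 of the 6 libraries, 2 of them RUNX1T1-low, carry the label of the control siRNA. The comparison is therefore not a test of siRE-mod, and a library's label is not taken here as the treatment it received. The cell line labels are in doubt as well. Across the 12 libraries, pairs with the same line label in CD34-expressing and CD34-silent libraries correlated at 0.876 to 0.907, and pairs with different line labels within a set at 0.972 to 0.995 (Pearson's r of log2 CPM, across genes). Line labels are used only as names, for a block and for a subset. The other 6 cultured libraries had 0.117 to 0.695 CPM of CD34 and are called CD34-silent.

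**Figure D1:**
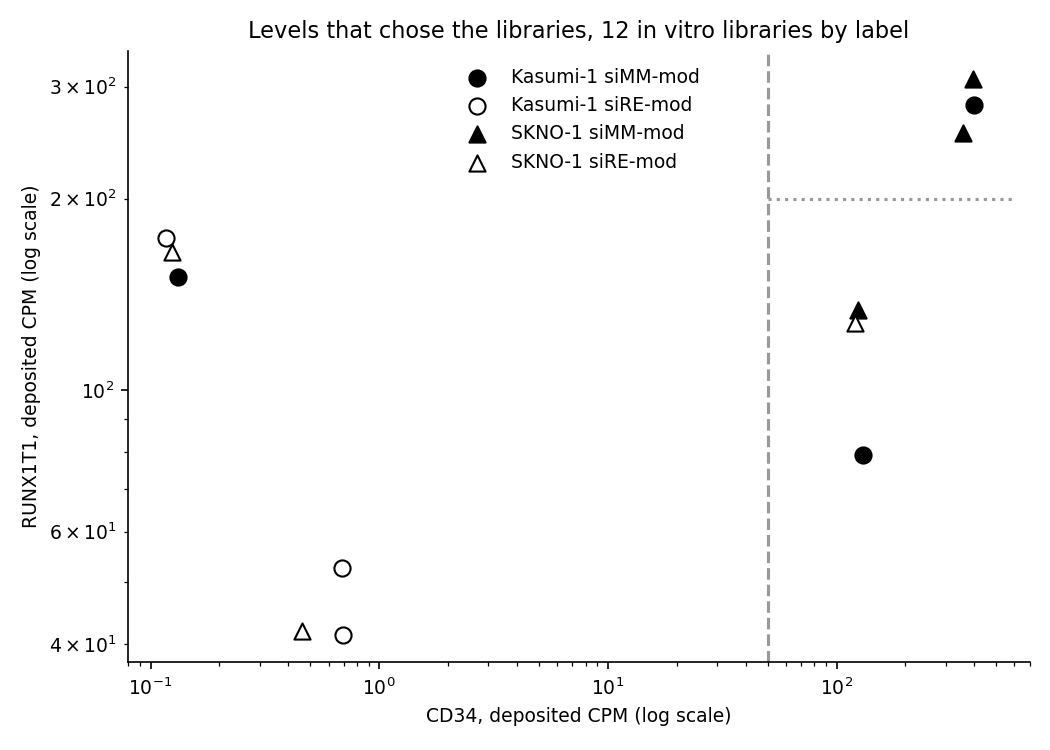
Deposited CPM of CD34 (x axis, log scale) and RUNX1T1 (y axis, log scale) in the 12 cultured libraries, with circles for the label Kasumi-1, triangles for SKNO-1, filled symbols for siMM-mod and open symbols for siRE-mod. The dashed line marks 50 CPM of CD34 and the dotted line 200 CPM of RUNX1T1, and 6 libraries lie to the right of the dashed line with 3 on each side of the dotted one.

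Depth on genes ranged from 60559466 to 91965969 counts in the 6 libraries. The RUNX1T1-high libraries correlated with each other at 0.992 to 0.996 (Pearson's r of log2 CPM, across genes), and SKNO-1 siMM-mod 3 with SKNO-1 siRE-mod 1 at 0.997. The library labelled Kasumi-1 siMM-mod 2 stood apart. It correlated at 0.973 and 0.972 with the 2 other RUNX1T1-low libraries and at 0.971 to 0.974 with the RUNX1T1-high ones, and it gave 0.680% of its counts on mitochondrial genes against 2.45% and 2.87% in the 2 others of its set and 1.03% to 1.39% in the RUNX1T1-high libraries. Counts of gene lists are therefore also given without it.

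In RUNX1T1-low libraries 9 of 14 tested genes of granule proteins and 9 of 16 genes of monocyte maturation were higher. Lower there were 13 of 19 genes of glycolysis, 15 of 25 of cholesterol synthesis and 7 of 11 genes that MAPK signalling induces. Only 4 of the 9 granule and 5 of the 9 monocyte genes had 600 reads in the RUNX1T1-high libraries alone. In the RUNX1T1-low libraries alone 11 of the 13, 15 of the 15 and 5 of the 7 lower genes had 600 reads. The others reached the total of 600 reads needed for a test through the set in which they were high, so these counts are a description. Of 12843 genes whose reads in the 6 libraries came to 600 or more, 2722 (21.2%) differed between the sets by edgeR's quasi-likelihood test at an adjusted p under 0.05. Of these, 1377 (10.7%) were higher in the RUNX1T1-low libraries and 1345 (10.5%) were lower. A difference of at least 2-fold was reached by 523 (4.07%) higher and 251 (1.95%) lower genes. The values of the 3 RUNX1T1-low libraries all lay above or all below those of the 3 RUNX1T1-high libraries in 5264 genes (41%).

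When 1 of the 6 libraries was left out at a time, 939 of the 2722 genes passed in all 6 fits, 508 higher and 431 lower. Without Kasumi-1 siMM-mod 2, 30.1% of genes were higher and 29% lower. Without SKNO-1 siRE-mod 1, which leaves 5 libraries that all carry the siMM-mod label, 1144 of 12257 genes passed.

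The 12 largest differences upwards included genes for proteins of granules and of the myeloid cell surface. Levels in single libraries are given as TMM-normalised CPM, in the order Kasumi-1 siMM-mod 1, SKNO-1 siMM-mod 1 and SKNO-1 siMM-mod 2 for the RUNX1T1-high set and Kasumi-1 siMM-mod 2, SKNO-1 siMM-mod 3 and SKNO-1 siRE-mod 1 for the RUNX1T1-low set. Differences are log2 values, RUNX1T1-low minus RUNX1T1-high, and p-values are adjusted over all 12843 genes. SE is the size of the difference divided by the square root of the F statistic of edgeR's test. It is thus derived from the test, and it may understate the spread where reads are few.

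*PRG2*, the major basic protein of eosinophil granules, had 0.217, 0.271 and 0.260 CPM in the RUNX1T1-high libraries and 194, 156 and 169 CPM in the RUNX1T1-low libraries. The gene lies at chr11:57386780-57390650 (GRCh38). It was close to silent in the first set and well expressed in every library of the second. The difference was 9.48 ± 0.14 (SE, n = 3 and 3), adjusted p = 8.04e-07, and rested on 16 to 19 reads per RUNX1T1-high library. An unnamed transcript on the same strand, AP000781.2, shares 42.9% of its exon bases, so part of its reads could be assigned elsewhere by the counting.

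*BPI* (chr20:38304123-38337505), the bactericidal protein of neutrophil primary granules that binds lipopolysaccharide, rose from 0.964, 0.686 and 0.925 CPM to 197, 137 and 129.9 CPM, a difference of 7.54 ± 0.24 (SE, n = 3 and 3) and adjusted p = 2.07e-05. *MS4A3*, a membrane protein of the granulocyte and monocyte lineage, was already detectable in the RUNX1T1-high libraries at 8.50, 8.30 and 8.24 CPM and stood at 187, 162 and 153 CPM in the RUNX1T1-low ones. For *MS4A3* the difference was 4.38 ± 0.09 (SE, n = 3 and 3, adjusted p = 4.87e-06), which is 20.8-fold. The sets did not overlap for either gene, and Kasumi-1 siMM-mod 2 was the highest library.

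*CEACAM6*, an adhesion protein of granulocytes, had 0.258, 0.186 and 0.477 CPM against 19.5, 15.3 and 14.2 CPM, a difference of 5.78 ± 0.33 (SE, n = 3 and 3). *AOAH*, the lipase that deacylates lipopolysaccharide, had 0.543, 0.314 and 0.405 CPM against 20.0, 18.5 and 21.2 CPM, a difference of 5.61 ± 0.21 (SE, n = 3 and 3). Both passed in every fit that left out 1 library.

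*ANXA1*, annexin A1, rose from 1.72, 1.24 and 1.85 to 30.8, 30.4 and 32.8 CPM, 20.2-fold. *CD24*, a sialoglycoprotein of the cell surface, rose 16.8-fold and *SELPLG*, the P-selectin ligand of leukocytes, 13.2-fold. *CD24* has near-identical copies elsewhere in the genome, so its counts are uncertain. *AHNAK*, a very large scaffold protein, rose 13.1-fold and *FBN1*, the fibrillin-1 of extracellular microfibrils, 12.9-fold. Adjusted p-values of these 5 genes lay between 1.4e-05 for *CD24* and 0.000199 for *SELPLG*.

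*ADGRG5*, an adhesion G protein-coupled receptor, and *C11orf21* complete the 12 largest differences upwards. *ADGRG5* rested on 2 to 6 reads per RUNX1T1-high library and reached 31.4, 22.1 and 22.7 CPM in the RUNX1T1-low libraries. *C11orf21*, which shares 3.36% of its exon bases with TSPAN32 on the other strand, rested on 4 to 7 reads and reached 15.8, 17.0 and 18.7 CPM. No fold is given for either, since it would depend on the few reads of the RUNX1T1-high libraries.

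**Figure D2:**
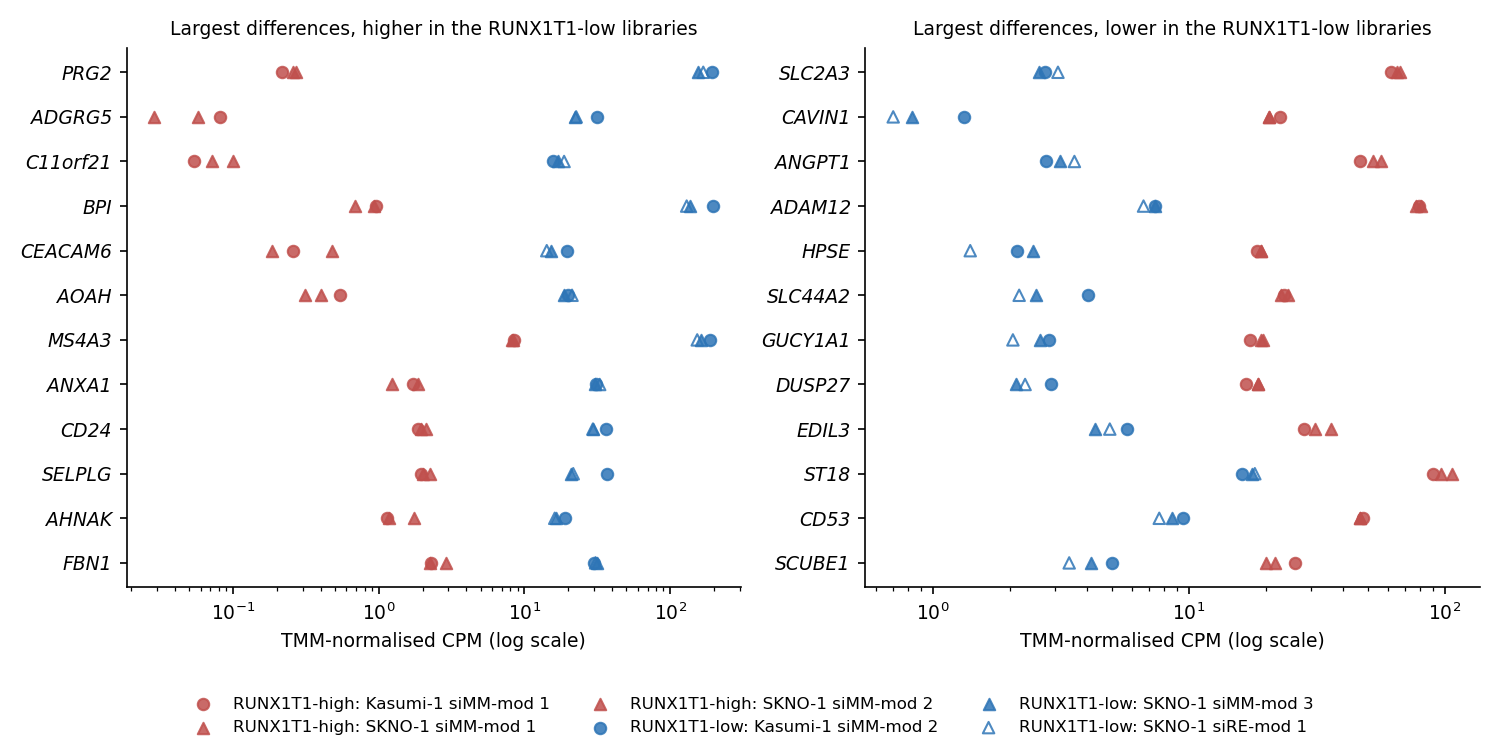
TMM-normalised CPM (x axis, log scale) of the 12 protein-coding genes with the largest difference in each direction, 1 symbol per library (circles Kasumi-1, triangles SKNO-1, open symbol the library labelled siRE-mod), red for RUNX1T1-high and blue for RUNX1T1-low. For each of the 24 genes the sets are apart, with all blue symbols right of the red ones in the left panel and left of them in the right panel.

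The 12 largest differences downwards follow. *SLC2A3* (chr12:7919230-7936187), the high-affinity glucose transporter GLUT3, had 61.6, 66.7 and 65.5 CPM in the RUNX1T1-high libraries and 2.76, 2.60 and 3.08 CPM in the RUNX1T1-low ones. It fell in all of these, with a difference of −4.46 ± 0.11 (SE, n = 3 and 3) and adjusted p = 6.46e-06. *SLC2A3* has the close paralog SLC2A14, between which reads could be split.

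*ANGPT1*, the ligand of the TIE2 receptor, fell from 46.7, 52.5 and 56.6 to 2.77, 3.14 and 3.58 CPM, a difference of −3.98 ± 0.15 (SE, n = 3 and 3, adjusted p = 3.51e-05). *CAVIN1*, a coat protein of caveolae, fell 21.4-fold, and its lowest levels, 0.831 and 0.700 CPM, were in the libraries labelled SKNO-1. *ADAM12*, a membrane metalloprotease, went from 79.4, 80.5 and 77.1 CPM to 7.39, 7.37 and 6.66 CPM, 10.7-fold lower. *HPSE*, the heparanase that cleaves heparan sulphate, was 9.13-fold lower.

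Of the remaining 7 genes, *SLC44A2*, a choline transporter-like protein, was 7.83-fold lower. *GUCY1A1*, a subunit of the soluble guanylate cyclase that nitric oxide activates, was 7.16-fold lower, and *DUSP27* 7.13-fold. *EDIL3*, an integrin-binding matrix protein, was 6.14-fold lower, *ST18*, a zinc finger transcription factor, 5.43-fold, *CD53*, a tetraspanin of leukocytes, 5.29-fold, and *SCUBE1*, a secreted protein with EGF-like domains, 5.22-fold. The levels of *ST18* were 89.9, 96.9 and 107 CPM in RUNX1T1-high and 16.2, 17.7 and 18.1 CPM in RUNX1T1-low libraries. All 24 genes with the largest differences passed in every fit that left out 1 library.

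TGTGGT is the core of the motif that *RUNX1* and RUNX1/ETO bind. It was searched on both strands (TGTGGT or ACCACA) in promoters from 250 bases before to 50 bases after the start, taken from RefSeq (GRCh38.p14), which matched 9057 of the genes tested. It occurred in 11.5% of 955 promoters of genes that were higher in RUNX1T1-low libraries, in 8.33% of 1009 promoters of genes that were lower and in 9.38% of all 9057. Among genes of at least 2-fold difference the shares were 14.9% of 295 and 8.92% of 157. These shares were not tested, and a match does not show binding.

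None of the 14 genes with the largest differences that have a promoter in the table holds the motif before the start. Among all genes named here, the 2 in each direction with the largest difference and a match are *CLEC12A* and *RPS6KA1*, which rose, and *LDHA* and *BCL2L1*, which fell, a choice made after the first search found none. *CLEC12A* encodes an inhibitory lectin of myeloid cells, *RPS6KA1* the ribosomal S6 kinase RSK1, *LDHA* lactate dehydrogenase A and *BCL2L1* the survival protein BCL-XL. The 250 bases before each start follow, 5′ to 3′ on the strand of the gene, with the match in capitals, which lies 184, 234, 223 and 233 bases before the start. They lie at chr12:9971159-9971408, chr1:26529511-26529760 and chr11:18394313-18394562 on the plus strand and at chr20:31723964-31724213 on the minus strand. The start used for *CLEC12A* lies inside the counted gene (chr12:9951316-9995694) and not at its first base.
*CLEC12A*: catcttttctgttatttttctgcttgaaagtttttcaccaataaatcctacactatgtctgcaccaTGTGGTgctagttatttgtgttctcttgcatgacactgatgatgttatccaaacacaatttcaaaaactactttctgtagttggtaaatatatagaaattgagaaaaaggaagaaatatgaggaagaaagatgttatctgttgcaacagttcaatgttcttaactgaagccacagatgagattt
*RPS6KA1*: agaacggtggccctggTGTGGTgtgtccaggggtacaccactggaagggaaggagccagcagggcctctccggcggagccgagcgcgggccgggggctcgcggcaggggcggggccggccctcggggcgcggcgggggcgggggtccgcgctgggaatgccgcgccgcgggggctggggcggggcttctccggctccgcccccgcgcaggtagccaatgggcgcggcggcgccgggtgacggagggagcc
*LDHA*: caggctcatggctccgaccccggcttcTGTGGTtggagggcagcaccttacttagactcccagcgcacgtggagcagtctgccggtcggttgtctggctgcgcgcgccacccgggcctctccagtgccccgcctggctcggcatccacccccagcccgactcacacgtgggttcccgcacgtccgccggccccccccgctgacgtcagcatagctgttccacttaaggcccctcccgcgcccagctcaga
*BCL2L1*: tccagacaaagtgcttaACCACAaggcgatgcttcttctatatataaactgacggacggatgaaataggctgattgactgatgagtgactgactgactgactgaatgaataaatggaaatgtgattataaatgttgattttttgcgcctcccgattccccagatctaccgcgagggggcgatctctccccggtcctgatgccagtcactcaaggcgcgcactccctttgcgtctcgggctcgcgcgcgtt

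Gene lists by function were counted against the background of 10.7% of all genes higher and 10.5% lower, with a median difference over all genes of 0.02. Some members reached 600 reads only through the set in which they were high, so the counts are a description. Of the 3 RUNX1/ETO targets called higher, 2 had 600 reads in the RUNX1T1-high libraries alone. So did 2 of 4 such NF-kB, 3 of 5 adhesion and 3 of 4 MHC class II genes. Members that also passed in every fit with 1 library left out are called stable, and the count without Kasumi-1 siMM-mod 2 is to be read against 30.1% higher and 29% lower.

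Of 22 granule proteins, mostly of neutrophils but with *PRG2*, *RNASE2* and *RNASE3* of eosinophils among those called, 14 were tested. Of these 9 were higher and none lower in RUNX1T1-low libraries, 8 of the 9 stable, and 9 were higher and none lower without Kasumi-1 siMM-mod 2. Only *AZU1*, *CTSG*, *RNASE2* and *SRGN* of the 9 had 600 reads in the RUNX1T1-high libraries alone. The other 5 passed the filter through the set in which they were high, so the count is a description. Beyond *PRG2*, *BPI* and *CEACAM6*, the largest difference was that of *CST7*, which encodes cystatin F, an inhibitor of granule proteases. It had 0.733, 0.629 and 0.564 CPM against 17.9, 11.6 and 10.8 CPM, a difference of 4.43 ± 0.25 (SE, n = 3 and 3) and adjusted p = 0.000112. *CTSG*, cathepsin G, rose from 127, 112 and 131 to 1411, 808 and 789.8 CPM, a log2 difference of 3.07, and *RNASE3*, the eosinophil cationic protein, from 2.66, 1.99 and 2.41 to 30.1, 21.4 and 20.2 CPM (3.39). *AZU1*, azurocidin, was abundant in both sets and rose from 404, 281 and 309.5 to 1103, 625 and 617 CPM (adjusted p = 0.0166). It was the member that did not pass in every fit.

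The other 5 granule genes tested did not pass. For *MPO*, myeloperoxidase, the log2 difference was 0.54, for *ELANE*, neutrophil elastase, 0.77, for *PRTN3*, proteinase 3, 0.68 and for *SERPINB1* −0.15. These 4 were abundant, whereas *LYZ*, lysozyme, with a difference of 0.37, had 13.5 to 23.9 CPM. The genes of later neutrophil granules, *LTF*, *LCN2*, *CAMP*, *MMP8* and *MMP9*, were under the filter of 600 reads in total, as were *CLC* and *EPX* of eosinophils.

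Among 30 genes of monocyte and macrophage maturation, 16 were tested, 9 higher, 5 of them stable, and 1 lower. Of the 9, 5 had 600 reads in the RUNX1T1-high libraries alone. Without Kasumi-1 siMM-mod 2 the counts were 8 and 3. *FCGR2A*, an activating receptor for immunoglobulin G, rose from 9.70, 8.44 and 9.02 to 50.5, 54.9 and 51.2 CPM, a difference of 2.58 ± 0.10 (SE, n = 3 and 3, adjusted p = 3.51e-05). *CSF1R*, the receptor for macrophage colony-stimulating factor, rose 2.23-fold, *FCER1G*, a signalling chain of Fc receptors, 3.02-fold, and *NCF1*, a cytosolic subunit of the NADPH oxidase with near-identical pseudogenes, 1.98-fold. *FCGR1A*, the high-affinity receptor for immunoglobulin G, was the member that fell, at −0.56 ± 0.11 (SE, n = 3 and 3) and adjusted p = 0.0174. *CD14*, *CD68*, *S100A8* and *S100A9*, which mature monocytes express strongly, were under the filter.

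Of 20 myeloid transcription factors, 13 were tested, with 5 higher and 1 lower, and 5 and 2 without Kasumi-1 siMM-mod 2. *CEBPE*, which drives terminal granulocyte differentiation, was the member with the largest difference and the 1 that was stable. It had 20.0, 13.9 and 15.4 CPM in RUNX1T1-high libraries and 145, 76.2 and 71.2 CPM in RUNX1T1-low libraries, a difference of 2.61 ± 0.30 (SE, n = 3 and 3) and adjusted p = 0.00203. *SPI1*, which encodes PU.1, rose 1.72-fold (adjusted p = 0.034), *IRF8* 2.22-fold and *ZEB2* 1.72-fold, and each of these lost its call when 1 library was left out. *EGR1*, an immediate early gene, was lower at 9.03, 7.47 and 8.79 against 5.41, 4.62 and 6.10 CPM (adjusted p = 0.037). *CEBPA*, a master regulator of granulocytes, did not pass by edgeR, as given with the targets of RUNX1/ETO.

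Transcription factors of stem and progenitor cells moved both ways. Of 20 tested, 5 were higher, 4 of them stable, and 6 lower, 2 of them stable, and without Kasumi-1 siMM-mod 2 the counts were 6 and 10. *NFE2*, a factor of the erythroid and megakaryocyte lineages, rose from 2.12, 1.90 and 1.73 to 25.2, 18.1 and 19.6 CPM, a difference of 3.5 ± 0.16 (SE, n = 3 and 3, adjusted p = 5.38e-05). *MYB*, which sustains progenitor proliferation, rose 1.75-fold, from 514, 526 and 517 to 868, 875 and 875 CPM, and *ID2*, an inhibitor of E proteins, 3.34-fold. *TAL1*, a factor of blood stem cells, fell 4.40-fold (adjusted p = 0.00162) and *MYCN* 3.46-fold (adjusted p = 0.000447). *GATA2*, *ERG*, *FLI1* and *LMO2*, which act together in stem cells, had differences of 0.27, −0.20, −0.14 and 0.41 and did not pass.

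Of 13 surface proteins of stem and progenitor cells that were tested, with CD34 left out, 3 were higher, all stable, and 6 lower, 4 of them stable. Without Kasumi-1 siMM-mod 2 the counts were 4 and 6. *CLEC12A*, whose promoter is shown above, had 2.19, 2.17 and 3.80 CPM against 23.0, 30.6 and 32.2 CPM, a difference of 3.45 ± 0.28 (SE, n = 3 and 3) and adjusted p = 0.00044. *CD33*, a sialic acid-binding lectin of myeloid cells, rose 1.95-fold and *SPN*, sialophorin, 1.51-fold. *CD200*, an inhibitory ligand, fell 3.28-fold, *CD109*, a GPI-anchored protein, 2.88-fold, *FLT3*, a receptor tyrosine kinase of progenitors, 2.24-fold and *CD44*, the hyaluronan receptor, 1.67-fold. *KIT*, the stem cell factor receptor, was lower at 945, 999 and 994 against 787, 696 and 682 CPM (adjusted p = 0.0332), a call that was lost when 1 library was left out.

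Genes that distinguish t(8;21) AML from other AML were also divided, with 4 higher, 2 of them stable, and 5 lower, 3 of them stable, of 14 tested. Without Kasumi-1 siMM-mod 2 they were 4 and 8. *CD82*, a tetraspanin, rose from 6.97, 5.54 and 6.59 to 89.2, 56.1 and 56.3 CPM, 10.9-fold, and *IGFBP7*, a secreted binding protein of growth factors, 3.71-fold. *UBASH3B*, a phosphatase that limits receptor signalling, fell from 197, 201 and 196 to 90.2, 80.4 and 79.6 CPM, a difference of −1.19 ± 0.07 (SE, n = 3 and 3) and adjusted p = 0.000112. *TSPAN7* fell 2.60-fold and *SIPA1L2* 1.88-fold. *TRH*, which encodes thyrotropin-releasing hormone, fell 2.46-fold but lost its call when 1 library was left out. *POU4F1*, a factor characteristic of this leukaemia, had a difference of −0.30 and did not pass.

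The study names 9 genes as targets or effectors of RUNX1/ETO. It shows *OGG1*, *RPS6KA1*, *BAALC* and *DEPTOR* with RNA-seq of these cells, so the directions of these 4 are not independent evidence. Of them, 3 were higher and 4 lower in RUNX1T1-low libraries, and all 7 were stable, also without Kasumi-1 siMM-mod 2. *OGG1*, the glycosylase that removes oxidised guanine, had 1.21, 1.11 and 1.13 CPM against 10.5, 9.75 and 9.18 CPM, a difference of 3.14 ± 0.14 (SE, n = 3 and 3) and adjusted p = 4.86e-05. Its exons overlap CAMK1 on the other strand over 24.9% of their bases.

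*LAPTM5*, a lysosomal membrane protein of blood cells, rose from 42.9, 33.7 and 35.9 to 322, 183 and 175 CPM, a difference of 2.64 ± 0.25 (SE, n = 3 and 3). *RPS6KA1*, whose promoter is shown above, rose from 23.2, 22.5 and 24.9 to 111, 74.5 and 75.3 CPM, a difference of 1.94 ± 0.16 (SE, n = 3 and 3). For both genes Kasumi-1 siMM-mod 2 was the highest library and the sets did not overlap. *BAALC*, a marker of immature AML, fell from 18.4, 17.3 and 19.0 to 5.08, 4.42 and 4.59 CPM (−1.90 ± 0.10 SE), and *DEPTOR*, an inhibitor of mTOR, from 55.1, 52.2 and 52.2 to 20.4, 16 and 16.2 CPM (−1.55 ± 0.10 SE).

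*CCND2*, cyclin D2, differed less. It had 322, 351 and 324 CPM in RUNX1T1-high libraries and 238, 211 and 207 CPM in RUNX1T1-low libraries, 1.47-fold lower (adjusted p = 0.00426). *TERT*, the catalytic subunit of telomerase, overlapped between the sets at 7.92, 6.50 and 5.30 against 6.15, 5.11 and 5.51 CPM (difference −0.18 ± 0.18 SE, adjusted p = 0.48). *CEBPA* had 3.07, 1.64 and 2.41 against 7.16, 3.35 and 3.25 CPM, with a difference of 0.99 ± 0.38 (SE, n = 3 and 3) and adjusted p = 0.104. By DESeq2, which called 4357 of 12843 genes, 4 of the 9 targets were higher, *CEBPA* among them.

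Genes that rise with MAPK signalling were mostly lower. Of 11 tested, 7 were lower, 6 of them stable, and 1 was higher, with a median of −0.90, and without Kasumi-1 siMM-mod 2 the counts were 8 lower and 1 higher. *DUSP6*, the phosphatase of ERK, fell from 72.2, 76.5 and 78.2 to 25.4, 23.1 and 24.0 CPM, a difference of −1.59 ± 0.07 (SE, n = 3 and 3) and adjusted p = 4.86e-05. The ETS factors *ETV4* and *ETV5* fell 5.76-fold and 3.34-fold and *CCND1*, cyclin D1, 3.45-fold. *SPRY2*, an inhibitor of the same pathway, was the member that was higher, at 23.0, 20.8 and 23.1 against 28.8, 28.3 and 29.3 CPM (adjusted p = 0.0156), and it was not stable. Of 9 AP-1 factors tested, 4 were lower and none higher, and 5 and 1 without Kasumi-1 siMM-mod 2. *FOSL2* fell 2.37-fold and was the 1 stable member, *JUN* had a difference of −0.68 ± 0.18 (SE, n = 3 and 3) and *FOSL1* of −0.55 ± 0.14 (SE, n = 3 and 3), while *FOS* and *JUNB* did not pass at 0.13 and −0.23.

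Glycolysis was the metabolic list with the largest share of members called. Of 19 tested, 13 were lower, 5 of them stable, and none was higher, with a median of −0.74. Without Kasumi-1 siMM-mod 2 the counts were 17 lower and 1 higher. Beyond *SLC2A3*, *LDHA* fell from 996, 1044 and 1156 to 584, 464 and 463 CPM, a difference of −1.03 ± 0.12 (SE, n = 3 and 3) and adjusted p = 0.0021. *HK1*, hexokinase 1, fell 2.01-fold and *ENO2*, an enolase, 2.42-fold. Kasumi-1 siMM-mod 2 was the highest RUNX1T1-low library for *LDHA* and *HK1*, and the sets did not overlap for either.

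Of 25 genes of cholesterol synthesis and uptake that were tested, 15 were lower, 9 of them stable, and 1 was higher, with a median of −0.59. Without Kasumi-1 siMM-mod 2 the counts were 21 lower and none higher. *HMGCS1*, the synthase that starts the mevalonate pathway, fell from 161, 192 and 170.2 to 71.4, 62.6 and 58.5 CPM, a difference of −1.39 ± 0.10 (SE, n = 3 and 3, adjusted p = 0.000255). An antisense transcript shares 37.7% of the exon bases of *HMGCS1*. *MSMO1*, an enzyme of the later steps, fell 1.89-fold. The member that was higher was *ABCA1*, the exporter of cholesterol, at 0.122, 0.0857 and 0.116 against 2.87, 2.95 and 2.98 CPM. It was named after its values were seen, because its level is under the limit for naming. With a RUNX1T1-low library left out its reads were under the filter, so it was not tested there and does not count as stable.

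Genes of the cell cycle differed by little. In DNA replication, 8 of 33 were lower and none higher, none of them stable, with a median of −0.29, and 22 were lower without Kasumi-1 siMM-mod 2. *RRM2*, a subunit of ribonucleotide reductase, had 207, 218 and 241 against 157, 149 and 159 CPM (−0.46 ± 0.08 SE, adjusted p = 0.00926), *MCM10*, an initiation factor of replication, fell 1.31-fold, and *MCM6*, part of the replicative helicase, 1.36-fold. In mitosis, 6 of 26 were lower and none higher, and 16 were lower and 1 higher without that library. *CDK1*, the kinase that drives mitotic entry, fell from 184, 193 and 215 to 130.5, 126 and 123 CPM (−0.59 ± 0.08 SE, adjusted p = 0.0033) and was the 1 stable member. *CCNB1* and *CCNA2*, its cyclins, fell 1.43-fold and 1.30-fold.

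Among cyclins, kinases and inhibitors of the G1 phase, 6 of 18 were lower, 3 of them stable, and 1 was higher, and 10 and 4 were so without Kasumi-1 siMM-mod 2. Beside *CCND1* and *CCND2*, *CDK4*, the partner of D cyclins, was lower at 149, 121 and 150.1 against 103, 61.4 and 58.3 CPM (adjusted p = 0.0327), where TSPAN31 on the other strand shares 44.3% of its exon bases. *CCNE2*, cyclin E2, was lower at −0.51 ± 0.11 (SE, n = 3 and 3), and *CDK2* was higher at 0.37 ± 0.08 (SE, n = 3 and 3). *CDKN1A*, the inhibitor p21, was under the filter.

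Of 8 MHC class II genes tested, 4 were higher, 3 of them stable, and none was lower, and 4 were higher and 1 lower without Kasumi-1 siMM-mod 2. *CIITA*, the transactivator of this gene group, had 11.6, 10.8 and 9.19 CPM against 22.6, 27.1 and 24.5 CPM, a difference of 1.29 ± 0.13 (SE, n = 3 and 3) and adjusted p = 0.00128. *HLA-DRA*, the alpha chain of HLA-DR, rose 3.10-fold, *HLA-DPB1* 2.22-fold and *RFX5*, a factor that binds their promoters, 1.26-fold, and HLA genes are uncertain since reads can be shared between them. *CD74*, the invariant chain, had a difference of 0.64 and did not pass.

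Of 15 cytokine receptors tested, 3 were higher, 2 of them stable, and 1 was lower, and 4 and 4 without Kasumi-1 siMM-mod 2. *IL6R*, the interleukin-6 receptor, had 3.56, 3.79 and 3.45 CPM against 50.4, 37.2 and 35.8 CPM, a difference of 3.56 ± 0.15 (SE, n = 3 and 3) and adjusted p = 4.43e-05. *IL17RA* rose 1.97-fold, *IFNGR1* 1.41-fold, and *IL13RA1* fell 1.40-fold, the last 2 without passing in every fit. In the NF-kB list, 4 of 15 were higher and 3 lower, and 5 and 5 without that library. *TNFAIP3*, the deubiquitinase A20, rose 2.41-fold and *NFKBID* 2.30-fold, both stable, and *BCL3* and *NFKBIA* were higher at 1.81 ± 0.41 (SE, n = 3 and 3) and 0.46 ± 0.10 (SE, n = 3 and 3). *CXCL8*, interleukin 8, had 4.92, 4.41 and 7.36 against 1.99, 2.24 and 2.67 CPM, *ICAM1* was lower at −1.48 ± 0.32 (SE, n = 3 and 3) and *NFKBIE* at −0.66 ± 0.16 (SE, n = 3 and 3), none of them stable. The subunits *NFKB1*, *REL* and *RELA* had differences of 0.20, 0.08 and 0.10 and did not pass.

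Adhesion molecules were divided, with 5 of 15 higher, 3 of them stable, and 4 lower, 1 of them stable, and 5 and 5 without Kasumi-1 siMM-mod 2. Beside *SELPLG*, *CD47*, the ligand of SIRP-alpha, rose 2.07-fold, and *ITGA4*, the alpha-4 integrin chain, 1.49-fold. *ICAM3*, *PECAM1*, *ITGB1* and *CD58* had differences of 0.99, −1.23, −0.52 and −0.50 and lost their calls when 1 library was left out. An antisense transcript shares 75.4% of the exon bases of *ICAM3*.

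Partners and paralogs of the fusion protein were measured as well. Among 17 genes of ETO-bound corepressors and RUNX factors, 4 were higher, 2 of them stable, and 3 lower, 1 of them stable, and 6 and 7 without Kasumi-1 siMM-mod 2. *CBFA2T3*, the paralog of RUNX1T1 that encodes ETO2, rose from 18.3, 16.6 and 14.0 to 43.4, 29.5 and 29.6 CPM, 2.17-fold, and *ZBTB16*, the zinc finger repressor PLZF, 2.16-fold. *RUNX3* and *RUNX2* were higher at 0.87 ± 0.19 (SE, n = 3 and 3) and 0.51 ± 0.09 (SE, n = 3 and 3). *RUNX1*, whose first exons the fusion retains, was lower at 411, 399.5 and 383 against 317, 309 and 296 CPM (adjusted p = 0.0244) and not stable. *HDAC1* fell 1.41-fold and was stable, *HDAC2* was lower at −0.39 ± 0.09 (SE, n = 3 and 3), and *NCOR1* did not pass at 0.12.

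The other lists had few members called. Of 27 lysosomal genes, 3 were higher and 1 lower, led by *LAMP2* (1.86-fold higher) and *GLA* (1.65-fold higher), the 2 that were stable, and 8 and 4 without Kasumi-1 siMM-mod 2. Of 15 interferon-stimulated genes, 2 were higher, none stable, and 2 lower, both stable, and 3 and 6 without that library. *IFITM3* fell 2.43-fold and *EIF2AK2* 1.44-fold. Of 12 genes of the *BCL2* family, *BCL2* rose 1.6-fold and was stable, with 2 higher and 6 lower in all without that library, while *BCL2L1* and *PMAIP1* were lower at −0.59 ± 0.16 (SE, n = 3 and 3) and −0.42 ± 0.12 (SE, n = 3 and 3). Of 20 genes of base excision repair, *MBD4* and *OGG1* were higher and *UNG* and *TDG* lower, of which *OGG1* and *TDG* were stable, and 4 were higher and 9 lower without that library.

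Of 8 senescence-associated genes tested, 1 was higher and 4 lower, 1 in each direction stable, with *IGFBP4* 3.15-fold lower, and the counts were the same without Kasumi-1 siMM-mod 2. Of 15 genes of the mTOR complexes, *DEPTOR*, which was stable, and *RPTOR* were lower and none was higher, and 2 were higher and 6 lower without that library. None of 36 cytosolic ribosomal protein genes passed in either direction by edgeR or by DESeq2, 0 had an unadjusted p under 0.05 by edgeR, with a median of −0.10, and 17 of them were lower and none higher without Kasumi-1 siMM-mod 2.

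Markers of the cells themselves and of other cell types were summed over each list. The 10 markers of myeloid leukaemia cells, such as *MPO* and *PTPRC*, summed to 12099 to 14871 CPM in RUNX1T1-high libraries and 14924 to 25423 CPM in RUNX1T1-low ones. Most of that sum was *MPO*, which did not pass, at 13092, 10437 and 11146 against 22667, 13187 and 13069 CPM. All 10 were tested, with 4 higher, 1 lower and 5 not called. The summed level of the 11 markers of mast cells and eosinophils went from 7.16–8.72 to 168–207 CPM. Nearly all of the sum in RUNX1T1-low libraries was *PRG2*. *CPA3*, the mast cell carboxypeptidase, had 1.34, 0.843 and 1.53 against 8.38, 7.16 and 7.70 CPM. Of the 3 markers tested, these 2 were higher and 1 was lower by at least 2-fold, though not stable. The other 8 of the 11, among them *HDC*, *MS4A2*, *EPX* and *CCR3*, were under the filter.

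The 10 markers of T and NK cells summed to 4.98 to 5.56 and 12.2 to 21.4 CPM. *NKG7*, a cytotoxic granule protein, rose from 0.448, 0.529 and 0.332 to 19.4, 9.81 and 10.1 CPM, *CD8A* was lower in every fit, and the other 8, with *CD3D*, *CD3E* and *CD3G* that define T cells, were under the filter. B cell markers summed to 10.1 to 11.7 CPM in RUNX1T1-high and 4.13 to 7.21 CPM in RUNX1T1-low libraries. Over the 6 libraries erythroid markers summed to 1.37 to 2.16, megakaryocyte markers to 4.03 to 8.93 and stromal markers to 2.45 to 5.86 CPM. Below 1 CPM in all 6 libraries were 6 of 8 B cell, 10 of 11 erythroid, 6 of 9 megakaryocyte and 8 of 10 stromal markers, and 3, 1, 1 and 4 of them were at 0 throughout. Endothelial markers were lower in RUNX1T1-low libraries, at 5.57 to 6.90 against 19.9 to 23.7 CPM, mostly through *ESAM* (3.59-fold lower), with *CDH5*, *KDR* and *CLDN5* under the filter. Epithelial markers overlapped between the sets, at 96.2 to 111 and 88.0 to 115 CPM. The part of other cells in the results was not tested. In these bulk libraries a change in the share of cells of a kind and a change of RNA per cell cannot be told apart.

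The same question was put to the 6 CD34-silent libraries, of which 3 with RUNX1T1 above 100 CPM were compared with 3 below, again chosen by measured values. Those above were labelled Kasumi-1 siMM-mod 3, Kasumi-1 siRE-mod 2 and SKNO-1 siRE-mod 2. Those below were labelled Kasumi-1 siRE-mod 1, Kasumi-1 siRE-mod 3 and SKNO-1 siRE-mod 3. In this order the RUNX1T1 levels were 150, 174 and 165 CPM against 52.7, 41.3 and 41.9 CPM. The RUNX1T1 levels compared are thus not the same in the 2 backgrounds. In one fit over the 12 libraries, 4765 of 15861 genes (30%) differed between these sets, and for 3979 genes (25.1%) the difference was not the same in CD34-expressing and CD34-silent libraries by the interaction term. The same fit called 3699 of the 15861 genes in CD34-expressing libraries. The CD34-expressing differences and calls given here come from the fit of 6 libraries, and the CD34-silent ones from the fit of 12. Calls in the 2 backgrounds are therefore not equally sensitive. Of the 2722 genes called in CD34-expressing libraries, 1275 (46.8%) were called in both. They were 30.6% of those called in CD34-silent libraries among the same 12843 genes. In 445 of these the RUNX1T1-low libraries were higher in both backgrounds, in 502 lower in both, in 178 higher and then lower, and in 150 lower and then higher.

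*PRG2*, *BPI* and *SLC2A3* moved in the same direction in both backgrounds by unlike amounts. *PRG2* had 10.1, 7.47 and 6.19 CPM in the CD34-silent RUNX1T1-high libraries and 74.4, 83.3 and 88.9 CPM in the CD34-silent RUNX1T1-low ones, a difference of 3.38 against 9.48 in CD34-expressing libraries (interaction adjusted p = 1.36e-07). *BPI* differed by 3.94 and *SLC2A3* by −0.39 in CD34-silent libraries (interaction −3.55 and 4.13, adjusted p = 0.000192 and 1.2e-07). *ANGPT1* did not pass there, at −1.12 (adjusted p = 0.103, interaction 2.92, adjusted p = 0.00503). *OGG1*, *LAPTM5*, *RPS6KA1*, *BAALC* and *DEPTOR* moved in the same direction in both backgrounds, with CD34-silent differences of 2.71, 1.51, 1.42, −3.11 and −2.01. *CEBPE* was likewise higher in both, at 2.61 and 2.11 (interaction adjusted p = 0.371).

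Other genes turned. *IL6R*, higher in the CD34-expressing RUNX1T1-low libraries, was lower in the CD34-silent ones, at 18.9, 18.5 and 15.9 against 6.74, 7.36 and 8.92 CPM (interaction −4.73 ± 0.22 SE, adjusted p = 1.96e-07). *CIITA* turned in the same way, with 41.7, 45.3 and 51.9 against 7.39, 7.50 and 7.05 CPM in CD34-silent libraries (interaction −3.89 ± 0.17, adjusted p = 1.36e-07), and 7 of the 8 MHC class II genes tested were lower there, where 16.3% of the 12843 genes were lower and 16.2% higher. *HMGCS1* turned the other way, rising from 261, 243 and 246 to 464, 487 and 533 CPM in CD34-silent libraries (interaction 2.43 ± 0.15, adjusted p = 1.36e-06).

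Of 33 genes of DNA replication, 8 were lower and none higher in CD34-expressing RUNX1T1-low libraries, and 17 were higher and 1 lower in CD34-silent ones, with medians of −0.29 and 0.38, and the interaction passed in 23, against 27.1% of the 12843 genes. *MCM10*, *CDC45*, *CDC6* and *RRM2* were called in both backgrounds, lower in the first and higher in the second. For mitosis the CD34-silent counts were 8 higher and none lower, and *CDK1*, *CCNB1* and *CCNA2* were called in both with opposite directions. In glycolysis 12 members were lower and none higher there as well, and the interaction passed in 4 of 19, a share near that of all genes. The counts of the 2 backgrounds come from different libraries and different fits.

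Among the genes with the largest interaction were 4 not yet described. *CR1*, complement receptor 1, had 0.421, 0.486 and 0.448 and 0.179, 0.0314 and 0.149 CPM in the CD34-expressing sets and 8.97, 10.4 and 9.77 and 41.7, 46.7 and 52.0 CPM in the CD34-silent ones (interaction 4.13, adjusted p = 2e-05). *SLC2A6*, a hexose transporter of lysosomes, was under 1 CPM in all CD34-expressing libraries and had 2.58, 3.21 and 1.66 against 22.2, 24.4 and 20.8 CPM in the CD34-silent ones (interaction 3.56). *CYFIP2*, a regulator of actin, rose from 1.18, 1.43 and 0.723 to 18.8, 14.6 and 12.1 CPM in CD34-expressing libraries and fell from 124, 113 and 116 to 61.4, 64.8 and 70.2 CPM in CD34-silent ones (interaction −4.62, adjusted p = 1.36e-06). *MT-RNR1*, a mitochondrial ribosomal RNA, varied within sets, with 0.652, 17.8 and 9.86 against 42.8, 6.71 and 134 CPM in CD34-expressing libraries and 4.77, 0.331 and 569.7 against 0.157, 0.167 and 1.79 in CD34-silent ones (interaction −10.69, adjusted p = 0.0468). *IRF8* was at 0 in all 6 CD34-silent libraries, and *ST18* and *CD109* had at most 0.0522 CPM there, so that no fold is given for them in that background.

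**Figure D3:**
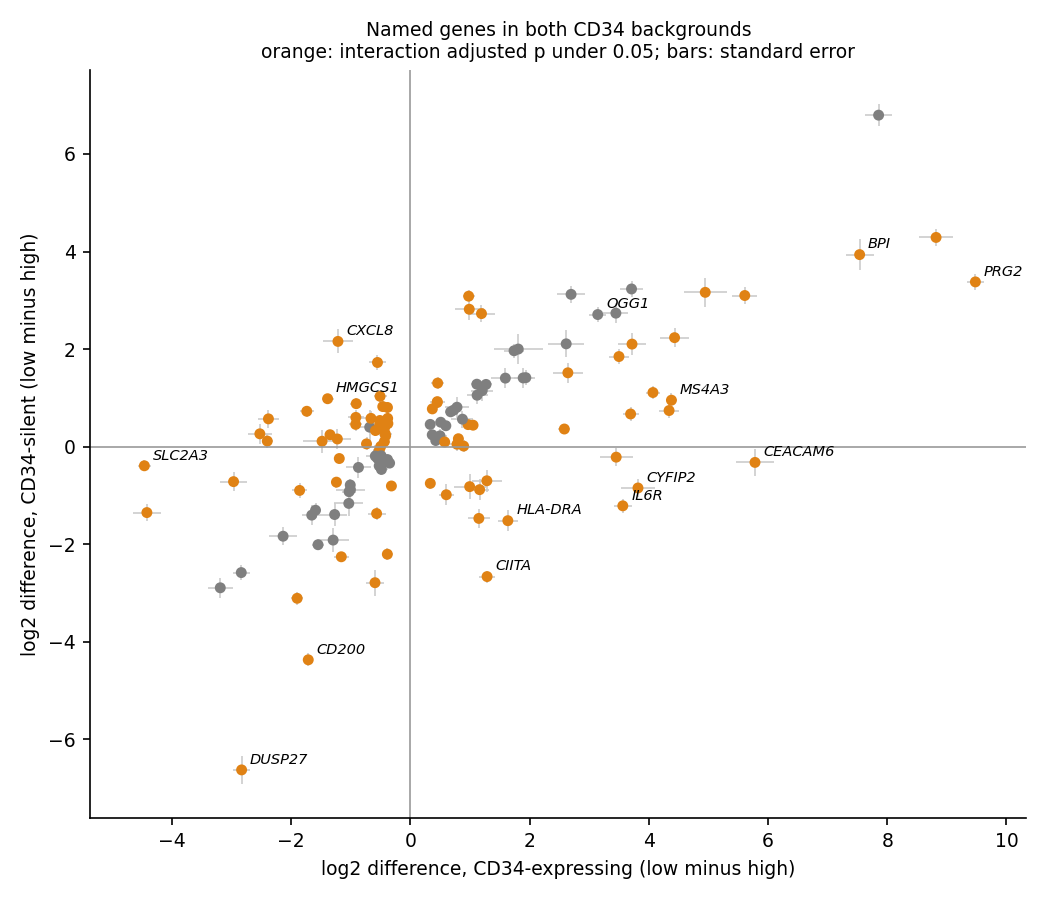
Log2 difference, RUNX1T1-low minus RUNX1T1-high, in CD34-expressing (x axis) and CD34-silent (y axis) libraries for 132 named genes with an adjusted p under 0.05 in the first and at least 1 CPM in the second, 3 libraries against 3 in each, with bars for the standard error. The 83 genes with an interaction at an adjusted p under 0.05 are orange, and PRG2, BPI and DUSP27 keep their direction while IL6R, CIITA and HMGCS1 lie in the quadrants of opposite sign.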

How the data were processed

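RNA-seq reads of Kasumi-1 and SKNO-1 cells were trimmed by the authors with Trim Galore 0.6.5, aligned to GRCh38 with STAR 2.7.10a and counted over the exons of each gene. The methods name subread 1.6.5 and the file headers Rsubread 1.32.4 under R 3.5.1. The strand setting and the rule for reads shared by genes are not given in the sources used here. Counts of genes with exon overlap on the other strand are therefore uncertain. Beside those described, such overlap covers 43.0% of the exon bases of *BCL2L1*, 37.05% of *CCNE2*, 28.6% of *DUSP6* and 25.3% of *CEBPA*. The deposited tables hold raw counts, used for all tests, and CPM made by the authors from the same counts, used only to choose the 6 libraries (CD34 above 50, RUNX1T1 above or below 200). The libraries, gene lists and tests were chosen with earlier results of these data known, and the sets come from measured values, so that p-values describe how these libraries separate. CD34 and RUNX1T1 were left out of all counts. The 4 in vivo libraries were not used here.

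Genes whose reads summed to 600 or more were kept, the filter of the study. They were normalised by TMM and tested with edgeR 4.0.16 (robust quasi-likelihood, R 4.3.3), with Benjamini-Hochberg adjustment and a threshold of 0.05. DESeq2 1.42.0, the tool of the study, was an alternative. The interaction was fitted over 12 libraries. The procedure was tested on simulated data. Named are up to 12 protein-coding genes per direction with the largest difference, a mean of at least 16 CPM in the higher set and no overlap; up to 4 called members per list and direction with at least 4 CPM; 9 genes named by the study; and up to 5 genes per direction with the largest interaction. Of the genes this rule names, 3 are not reported here. Of 641 list entries 11 had no match in the tables. Each library was counted as 1 sample. Pairs of libraries within a set differed by more than sampling noise, which does not show that they came from separate treatments. Depth is given in the report. Alternatives were DESeq2, its size factors, other filters, the labelled cell line or replicate number as a block, 12 libraries in one fit, the libraries labelled SKNO-1 alone, and each library left out. Normalisation without mitochondrial genes was added after seeing the data. Python 3.11.15 with pandas 2.3.3, numpy 2.4.6 and matplotlib 3.10.9 made tables and figures.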

Additional observations from a re-analysis of the deposited data

Results flagged for a closer look

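The difference between RUNX1T1-low and RUNX1T1-high libraries was not the same in CD34-expressing and CD34-silent libraries for 3979 of 15861 genes, by the interaction term of edgeR's quasi-likelihood test. Among the genes named in the report, values are given for genes called with opposite directions in the 2 backgrounds and for genes with the largest interactions, as the log2 interaction, CD34-silent minus CD34-expressing, where at least 0.1 CPM was reached in each background. The interaction was −6.05 for *PRG2*, −6.05 for *CEACAM6*, −1.99 for *CSF1R*, −4.73 for *IL6R*, −1.77 for *ICAM3*, −3.10 for *HLA-DRA*, −3.89 for *CIITA* and −2.57 for *HLA-DPB1*. It was −1.53 for *IFIT2*, −1.03 for *HEXA*, −1.94 for *AZU1*, −10.69 for *MT-RNR1* and −4.62 for *CYFIP2*. In the other direction it was 4.13 for *SLC2A3*, 3.00 for *SCUBE1*, 1.85 for *SIPA1L2*, 2.33 for *FOSL1*, 3.43 for *CXCL8*, 1.29 for *NFKBIE* and 2.52 for *ETV5*. For a further group it was 1.6 for *CCNE2*, 1.34 for *RRM2*, 1.24 for *MCM10*, 0.97 for *CDK1*, 1.03 for *CCNB1*, 1.01 for *CCNA2* and 0.91 for *LMNB1*. The remaining values were 2.43 for *HMGCS1*, 1.43 for *MSMO1*, 1.10 for *TDG*, 4.13 for *CR1* and 3.56 for *SLC2A6*.

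Over all genes with at least 1 CPM in each background, 318 were called in opposite directions, 171 of them higher in the CD34-expressing and lower in the CD34-silent RUNX1T1-low libraries and 147 the other way. Of the 143 named genes that were called in CD34-expressing libraries, 88 had an interaction past the threshold. So did 1348 of all 2722 genes called there and 27.1% of the 12843 genes tested. Some named genes were chosen for a large interaction or a large difference, so their share follows in part from the choice. The labels differ between the backgrounds, with 1 library labelled Kasumi-1 and 2 labelled SKNO-1 in each CD34-expressing set and 2 and 1 in each CD34-silent set. The siRNA labels differ more. Among CD34-expressing libraries only SKNO-1 siRE-mod 1 carried the siRE-mod label, and among CD34-silent ones only Kasumi-1 siMM-mod 3 carried siMM-mod. Background thus nearly coincides with the siRNA label. The part of the labels in the differences between the backgrounds was not tested.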

How the results depend on the processing

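No gene called under an alternative had the opposite direction to the 2722 genes called, in any of the 15 alternatives run. The count of genes called was 4357 with DESeq2, 4419 with the labelled cell line as a block, 7361 in the libraries labelled SKNO-1 alone (2 against 2) and 1093 to 7324 with 1 library left out, highest without Kasumi-1 siMM-mod 2 and lowest without SKNO-1 siMM-mod 1. Without Kasumi-1 siMM-mod 1, SKNO-1 siMM-mod 2, SKNO-1 siMM-mod 3 and SKNO-1 siRE-mod 1 it was 1420, 1122, 1162 and 1144. The causes were not tested. The count of genes with at least a 2-fold difference, 774, became 1594 with at least 1 read, 1309 with filterByExpr, 1203 with 12 libraries in one fit, 1278 in the libraries labelled SKNO-1 alone and 513 to 1446 with 1 library left out. The interaction count, 3979, ranged from 2621 to 7023 with 1 of the 12 libraries left out, highest without Kasumi-1 siMM-mod 2 and lowest without Kasumi-1 siRE-mod 3.

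Replicate numbers were not used as a pairing in the main fit, and whether they pair the samples was not tested. Deviations of libraries with the same number correlated at 0.18 and −0.401 across line labels, and at 0.661 for SKNO-1 siMM-mod 1 and SKNO-1 siRE-mod 1. Other pairs across the sets within a line label had 0.299 for Kasumi-1 and 0.503, −0.256 and −0.0775 for SKNO-1. With the replicate number as a block 1384 genes were called. The next counts cover the log2 differences of the named genes and the interactions of those named for a large interaction. Of these, 1228 of 1352 values under other settings kept direction and call, 121 lost the call and 3 gained it. With 1 library left out, 755 of 996 kept both and 241 lost the call, and none of either kind turned.

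Every library had at least 60559466 counts, and fold differences depend on a few reads where a set is near 0.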
